A study of Mus musculus with 44 samples.

Results

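Sox9 and the open chromatin around it were followed through every measurement of a mouse medulloblastoma series. Sox9 was taken by its symbol in both bulk RNA tables (1 gene among 16078 and 15926) and both single-cell tables. Its chromatin was taken as every region whose name in the authors' tables gives Sox9 as the gene to its left or right. That rule found 43 of 88258 regions in the table of GFP and nonGFP fractions and 3 of 88981 in the table of treated lines and GTS sources.

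SOX9 is an HMG-box transcription factor of the SoxE group, which also holds SOX8 and SOX10. In the brain it is made by neural stem and glial progenitor cells and astrocytes, and outside it drives cartilage formation together with SOX5 and SOX6. The ubiquitin ligase adaptor FBXW7 marks SOX9 protein for degradation, so RNA and protein need not move together. Sox9 lies in a wide gene-poor stretch of chromosome 11, and its distant enhancers are known from cartilage, testis and other tissues.

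Medulloblastoma is a tumor of the cerebellum. Bulk RNA was measured in 8 GTML and 6 GTS tumors, whose titles name no treatment. It was also measured in 2 tumor lines, GTML3 and preGTS1, each under DMSO or DOX (doxycycline) with 3 samples per condition. Open chromatin (ATAC-seq, which counts transposase cuts) was measured in duplicate in the same lines and conditions. It was also measured in sources labelled GTS 1 and GTS 2, whose titles name no treatment, and in fractions labelled GFP and NoneGFP from GTML tumor. Whether the tumors and GTS sources had been exposed to DOX cannot be told from the titles. Single cells came from 1 GTML library titled GTML_SOX9-GFP and 1 GTS library titled fGTS2. As background, GTML mice carry a MYCN transgene that a transactivator under the glial Glt1 promoter switches on and DOX switches off, and GTS tumors come from a related model with a driver under Sox9. The labels name no allele, age, sex or dose, do not say what drives GFP, and do not say whether the replicates of a line came from separate cultures, so the p-values reflect only how far these samples spread, and part of that may be technical. Mycn RNA followed the DOX labels: its mean was 371 CPM (reads per 1000000 reads) under DMSO and 30.7 under DOX in GTML3, and 1605 and 55.6 in preGTS1. In units of 1000000 reads, the treated-line RNA libraries held 10.9 to 24.7, the ATAC libraries 0.827 to 7.77 in the lines and GTS sources, and 8.96 to 15.0 in the fractions. The depth of the tumor libraries is unknown.

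In the tumors Sox9 RNA was higher in GTS than in GTML by the mean, but the ranges overlapped and the difference missed the threshold of the fit across all genes. On the log2 CPM scale, Sox9 in the 8 GTML tumors had a lowest value of 1.41, a median of 2.38 and a highest of 4.38. The 6 GTS tumors had a lowest value of 3.28, a median of 3.77 and a highest of 6.44. All 6 GTS tumors lay above the GTML median, 6 of 8 GTML tumors lay below every GTS tumor, and 2 GTS tumors lay above every GTML tumor. From the lowest to the highest tumor Sox9 spanned 32.6-fold in CPM.

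The difference of GTS minus GTML was 1.73 (SE 0.562) on the log2 scale, with an adjusted p of 0.0778 by limma with Benjamini-Hochberg adjustment over 15708 genes. With the same test 3.92% of all genes were called higher in GTS and 1.96% lower, and 94.8% of genes had a lower fold than Sox9. An exact two-sided permutation test on Sox9 alone gave p = 0.00966 over 3003 arrangements of the 14 tumors. The authors' column names carry 1 of 2 numbers of unstated meaning. The difference was 1.47 among the 6 GTML and 2 GTS tumors with the lower number (limma adjusted p = 0.425) and 2.02 among the 2 GTML and 4 GTS tumors with the higher (0.311). Permuting only within these numbers gave an exact p of 0.0119 over 420 arrangements. In the deposited values no gene differed on average between the numbers once tumor kind was taken into account, so a mean difference had been removed, and neither test allows for that. With the number as a term the limma adjusted p was 0.181, with 0.0509% of genes called higher and 0.00637% lower. Without GTML tumor 4, the GTML tumor with the highest Sox9, the difference was 1.99 with a limma adjusted p of 0.0446.

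Astrocyte markers were higher in most of the tumors with most Sox9, but they did not follow its order. The sum of 12 astrocyte markers was 381 and 370 CPM in GTML tumors 4 and 7, the GTML tumors with most Sox9, and 59.6 to 262 CPM in the other 6. It was 311 to 1681 CPM in 5 of the GTS tumors, highest in GTS tumor 1, which had 29.8 CPM of Sox9. Against this, GTS tumor 6 had 87.0 CPM of Sox9, the most of all, and an astrocyte sum of 130 CPM. GTML tumor 8, with the least Sox9 of all, had 262 CPM, while GTML tumor 5, with more Sox9, had 118 CPM. Of the 12 markers 2 were called higher in GTS (3.92% of all genes) and 0 with the header number as a term, where 4 were higher at an unadjusted p under 0.05. The part of normal astrocytes in the Sox9 difference was not tested, and in bulk samples fewer cells of a type and less RNA per cell cannot be told apart.

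**Figure D1:**
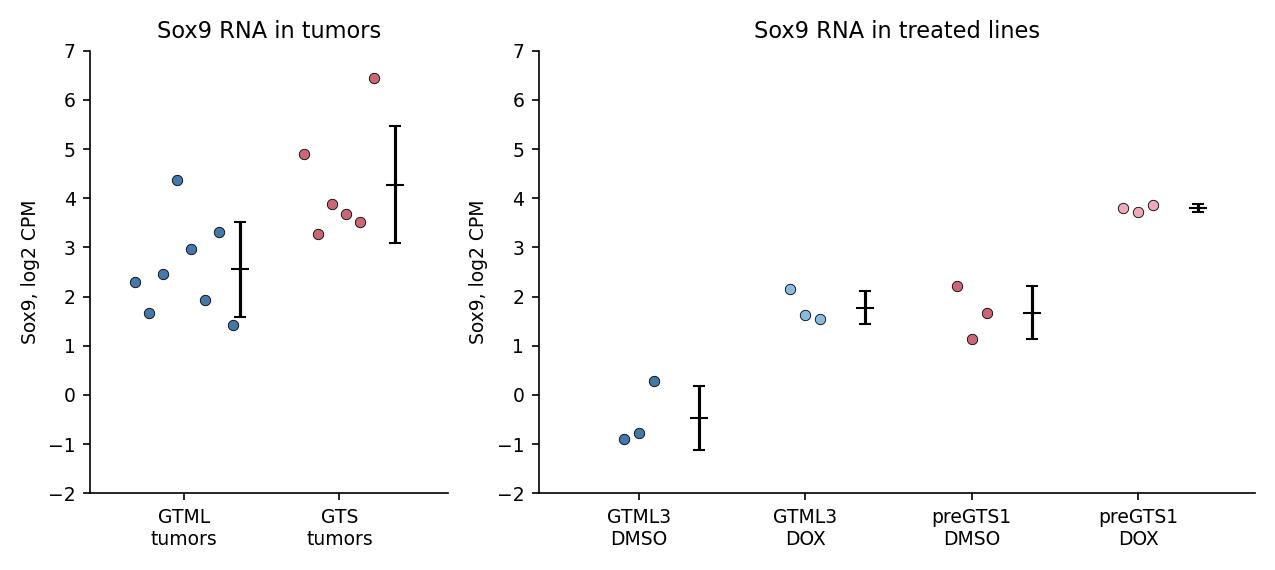
Sox9 RNA per sample in log2 CPM, in the tumors (left) and in the treated lines (right); dots are samples, and the line and bar beside them are the mean and SD. GTML and GTS tumors overlap between 3.28 and 4.38, while within each line every DOX sample lies above every DMSO sample.

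In both lines Sox9 RNA was higher under DOX, and preGTS1 held more of it than GTML3 under either condition. In GTML3 the samples had -0.90, -0.78 and 0.27 log2 CPM under DMSO, from 44 Sox9 reads in all, and 2.15, 1.63 and 1.54 under DOX, from 145 reads. In preGTS1 they had 2.21, 1.13 and 1.66 under DMSO (213 reads) and 3.81, 3.71 and 3.87 under DOX (707 reads). The DMSO and DOX samples of a line did not overlap, and preGTS1 under DMSO spanned the values of GTML3 under DOX. The order of means was therefore GTML3 under DMSO at 0.775 CPM, then preGTS1 under DMSO at 3.33 and GTML3 under DOX at 3.48, which did not separate, then preGTS1 under DOX at 13.9 CPM.

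Sox9 rose under DOX by 2.24 (SE 0.325) in GTML3, with a limma adjusted p of 1.71e-05, and by 2.13 in preGTS1, with 2.65e-05, on the log2 scale. The excess of preGTS1 over GTML3 was 2.14 under DMSO (limma adjusted p = 2.97e-05) and 2.02 under DOX (4.08e-05). DOX moved much of the transcriptome: 34.5% of 15926 genes were called higher and 31.4% lower in GTML3, and 34.5% and 33.7% in preGTS1. Between the lines 38.5% of genes were called higher in preGTS1 and 27.9% lower under DMSO, and 36.9% and 35% under DOX. Ordered from the largest rise to the largest fall, the Sox9 response ranked 600 of 15926 genes in GTML3 and 856 in preGTS1. Genes that fell by more than Sox9 rose are not counted above it in this order. The difference of the 2 responses was -0.12 (SE 0.459) with a limma adjusted p of 0.858, and its sign changed with the scale and with single libraries. A difference of the Sox9 responses was thus not detectable, while 17.1% of all genes were called higher by that test and 25.1% lower.

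Relatives and partners of SOX9 were measured from a list of 8 SOX genes. Of these 8, 6 were measured in the tumors, where 2 were called higher in GTS (3.92% of all genes), with a median log2 fold change of 0.74 against -0.07 over all genes. Sox2, the neural stem cell factor, ran from 0.72 to 2.79 log2 CPM in GTML (median 1.24) and from 2.59 to 4.73 in GTS (median 2.96), a difference of 1.78 (limma adjusted p = 0.0405). Sox5, a cofactor of SOX9 in cartilage, ran from 1.75 to 3.94 in GTML (median 2.40) and from 2.88 to 5.52 in GTS (median 4.10), a difference of 1.65 (0.0489). The groups overlapped for both genes, and with the header number as a term limma called 0 of the 6, with 2 higher and 1 lower at an unadjusted p under 0.05. The SoxE genes Sox10 and Sox8 differed by 0.82 and -0.47, Sox6 by 0.65 and Sox4 by -2.25, and none of these passed.

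Under DOX, 1 of 6 measured SOX genes rose and 2 fell in GTML3, and 3 rose and 1 fell in preGTS1. Over all genes 34.5% rose and 31.4% fell in GTML3, and 34.5% and 33.7% in preGTS1, so with so few genes the counts are near that background. The other SoxE gene measured, Sox8, fell by 2.05 in GTML3 and by 1.78 in preGTS1 on the log2 scale, opposite to Sox9. Sox4, a SoxC gene of young neurons, rose by 0.40 in GTML3 and by 2.32 in preGTS1. Sox6, the partner of SOX5, fell by 1.16 in GTML3 and rose by 0.66 in preGTS1. Sox5 had -0.02 in GTML3, which did not pass, and rose by 1.47 in preGTS1. Sox2 passed in neither line, with a mean of 0.258 CPM in GTML3 under DMSO and 17.4 in preGTS1. Sox1 had -1.38 in GTML3 and 1.44 in preGTS1 and did not pass either, in a fit where both lines share 1 estimate of spread. In preGTS1 its samples did not overlap, at 47.3 to 57.9 CPM under DMSO and 139 to 148 under DOX. GTML3 held only 7 Sox1 reads under DMSO and 6 under DOX. The median of the list was -1.01 in GTML3 and 1.05 in preGTS1, against 0.05 and 0.04 over all genes. The GTML3 median is limited by Sox1 and Sox2, whose folds there rest on few reads (14 under DMSO and 9 under DOX for Sox2).

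Genes listed as acting upstream of SOX9 (Notch, Hedgehog, FGF, BMP, Wnt and Hippo signalling, and its degradation) numbered 29. In the tumors 1 of 29 was called higher in GTS (3.92% of all genes), the BMP effector Smad1 at 0.55, and with the header number as a term 0 were (Smad1 limma adjusted p = 0.103; 4 higher and 4 lower at an unadjusted p under 0.05). In the lines 4 of 29 rose and 14 fell under DOX in GTML3 (median -0.34), while 13 rose and 7 fell in preGTS1 (median 0.50). Against the shares of all genes (34.5% and 31.4% in GTML3, 34.5% and 33.7% in preGTS1), fewer rose and more fell in GTML3, and the preGTS1 counts lay nearer to them. The largest changes in GTML3 were those of Gli1, the Hedgehog effector and target, which fell by 3.55, the Notch target Hes1, which fell by 3.04, and the Hippo pathway coactivator Yap1, which fell by 2.08. In preGTS1 Gli1 and Yap1 fell by 1.09 and by 1.01. There the largest were rises of 3.77 in Fgfr3 and 2.13 in Fgfr2, both FGF receptors of glial progenitors, and of 2.46 in the Notch target Hes5. The Notch receptor Notch1 fell by 1.55 in GTML3 and rose by 1.71 in preGTS1. Fbxw7, named after its values were seen, fell by 0.40 and by 0.45. The difference of responses itself was called higher in preGTS1 for 14 of these 29 genes and lower for 2 (17.1% and 25.1% of all genes).

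Most glial genes known as SOX9 targets or partners rose under DOX in preGTS1, and in GTML3 their counts were at the background. Of 19 measured in the tumors limma called 0, with 3 higher at an unadjusted p under 0.05 and a median of 0.52. Under DOX 6 of 18 rose and 5 fell in GTML3 (median 0.05), against 34.5% and 31.4% of all genes, and 14 rose and 1 fell in preGTS1 (median 1.03), against 34.5% and 33.7%. The difference of responses was called higher in preGTS1 for 9 of the 18 and lower for 1 (17.1% and 25.1% of all genes). Fabp7, the lipid-binding protein of radial glia, rose by 3.30 and by 3.39, and the glutamate transporter Slc1a2 rose by 2.38 and by 2.26. Slc1a3, the other glial glutamate transporter, fell by 2.65 in GTML3 and rose by 1.04 in preGTS1. Nfib, of the NFI family of glial fate factors, fell by 1.80 and rose by 0.96. In preGTS1 the matrix gene Tnc rose by 3.17, Id4, an inhibitor of bHLH factors, by 2.91, and the intermediate filament gene Vim by 2.68. Tnc and Vim had 0.34 and -0.13 in GTML3 and did not pass there.

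Of 16 cartilage genes that SOX9 switches on in chondrocytes, 13 passed the filter on low values in the tumors and 1 was called higher in GTS, the cartilage matrix gene Comp (1.78). With the header number as a term 0 were called (Comp limma adjusted p = 0.122; 3 higher and 1 lower at an unadjusted p under 0.05). In the lines 8 of 16 were measured, of which 5 rose and 1 fell under DOX in GTML3 and 3 rose and 0 fell in preGTS1, also at an unadjusted p under 0.05, beside all-gene shares of 34.5% and 31.4% in GTML3 and 34.5% and 33.7% in preGTS1. The collagen genes Col9a3 and Col2a1 rose by 0.91 and 0.77 in GTML3 and by 1.14 and 0.57 in preGTS1. Col9a1 fell by 3.30 in GTML3, where Col27a1 rose by 1.81, and Col11a2 rose by 1.86 in preGTS1. Genes of the cell cycle moved with Sox9 in the opposite direction: all 30 S-phase genes fell under DOX in each line, with medians of -2.88 in GTML3 and -3.23 in preGTS1, and 31 and 32 of 32 G2/M genes fell. In the tumors 6 of 30 S-phase genes and 2 of 32 G2/M genes were called lower in GTS and 0 higher (all genes: 1.96% lower, 3.92% higher). With the header number as a term limma called 0. There 20 of 30 and 24 of 32 were lower at an unadjusted p under 0.05, and 0 were higher. The summed astrocyte markers also differed between the conditions, at 6.98 to 12.5 CPM in GTML3 under DMSO, 26.0 to 29.2 under DOX, 139 to 144 in preGTS1 under DMSO and 401 to 467 under DOX, from the 3 of 12 markers the table holds. Of these 3, limma called 1 higher under DOX in GTML3, and 1 higher and 1 lower in preGTS1. Their part in the Sox9 change was not tested.

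Of a chosen list of 10 genes around Sox9 on chromosome 11, some were called in the direction of Sox9, and others were not. These are not simply the nearest genes: 4732490B19Rik and Fam104a, for example, were not on the list. Some lie far off. Regions between Kcnj16 and Kcnj2 lay at -1738 to -1716 kb from the Sox9 start (negative is upstream), and those between Slc39a11 and Sstr2 at 791 to 837 kb. In the tumors 1 of 9 measured neighbours was called higher in GTS (3.92% of all genes): Kcnj16, an inward-rectifier potassium channel gene upstream of Sox9, ran from -1.65 to 2.16 log2 CPM in GTML (median 0.44) and from 0.90 to 5.10 in GTS (median 3.39), a difference of 2.81 (limma adjusted p = 0.0279). With the header number as a term 0 of 9 were called (Kcnj16 limma adjusted p = 0.0958; 3 higher at an unadjusted p under 0.05). Its neighbour Kcnj2 differed by 1.41 (limma adjusted p = 0.0602). The gene 2610035D17Rik, which the region names of the GFP and nonGFP fractions pair with Sox9 downstream, differed by 0.19 (limma adjusted p = 0.81). Under DOX 4 of 7 measured neighbours rose and none fell in GTML3, and 5 of 7 rose and none fell in preGTS1, where 34.5% of all genes rose in each line and 31.4% and 33.7% fell. The somatostatin receptor gene Sstr2 rose by 1.76 and by 2.18, and the transporter gene Abca5 by 1.41 and by 1.02. The gene 2610035D17Rik had 0.09 in GTML3, which did not pass, and rose by 0.96 in preGTS1. Between the lines 6 of 7 were called higher in preGTS1 and 1 lower under DMSO (38.5% and 27.9% of all genes), and 5 and 0 under DOX (36.9% and 35%).

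Genes whose RNA was most like Sox9 were ranked by the lower of their Pearson correlations over the 14 tumors and over the 12 treated-line samples, among 12287 genes in both tables. The samples of each set share their tumor kind, line or treatment, so the values are descriptions. Among the 10 most alike were Abr, Ptprj, Sobp, Kirrel3, Jakmip3, Peg3, Tbc1d9b, Fbxo2 and Sesn3. Abr, a regulator of small GTPases, had r = 0.84 over the tumors and 0.88 over the lines, and Ptprj, a receptor phosphatase, 0.83 and 0.96. Of the opposite pattern, the centrosome gene Cep152 had -0.86 and -0.91, and the ribosome biogenesis gene Noc4l -0.90 and -0.85. Correlations over 0.7 in both sets were found for 91 genes, or 0.741% of those compared.

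In open chromatin the Sox9 stretch was more accessible in the GFP than in the nonGFP fraction, at the start of the gene and on both sides of it. What drives GFP is not given, so whether the fractions were separated by Sox9 itself is unknown, and its part in this difference was not tested. A region in the authors' table is a stretch in which transposase cuts piled up, and its CPM is scaled to all reads in listed regions. The region over the Sox9 start, chr11:112642514-112644480, had 183.7 and 181.4 CPM in the 2 GFP libraries and 101.2 and 101.3 in the 2 nonGFP libraries. The next region, chr11:112646239-112646686, centred 2.9 kb downstream of the start, had 18.2 and 22.3 against 9.19 and 10.7 CPM. In both regions the GFP libraries lay above the nonGFP libraries with no overlap. Positions are as the tables give them, and whether they refer to mm9 or mm10, both named in the submitters' processing notes, is not given.

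The labels do not say how the duplicates of a source were made. They differed less than the RNA replicates did (chi-square per degree of freedom 1.88 to 2.05 against 4.67 to 85.1). Counting error alone would give about 1 for reads counted singly, and more where both ends of a fragment are counted. Which of these applies is not given, so the duplicates may differ by counting error alone. The tests are therefore read as comparing these libraries, not conditions. With limma on log2(CPM + 1), which understates the change of weak regions, 17 of the 43 Sox9 regions were called higher in GFP and 0 lower, with 1 lower at an unadjusted p under 0.05 and 17 higher and 0 lower by edgeR. Over all 88258 regions 2.32% were called higher and 1.13% lower. The change at the start region was 0.84 on that scale (limma adjusted p = 1.76e-53), and 1.5% of all regions had a larger one. The median of the 43 regions was 0.54 against 0.03 over all regions. Both GFP libraries lay above both nonGFP libraries in 31 of the 43 regions and below them in 1, against 25.5% and 20.2% of all regions.

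The higher accessibility lay close to the gene. Within 100 kb of the start 15 of 17 regions were called and all 17 had both GFP libraries above both nonGFP libraries, with merged CPM ratios of 1.53 to 3.04 (median 1.80). Beyond 100 kb 2 of 26 were called, at 130.3 kb and 268.7 kb downstream, with a median change of 0.22. All 6 upstream regions, out to 59.0 kb, were called, and 11 of 37 downstream regions, which reach 419.2 kb. Among regions with a mean of at least 50 CPM, all 8 Sox9 regions were called, against 1.95% of 3839 regions.

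By mean CPM 2 regions, 58.1 kb and 29.8 kb downstream, exceeded the start region. The region 58.1 kb downstream, chr11:112700911-112702325, had 293.6 and 274.0 CPM in GFP and 189.9 and 171.5 in nonGFP, a change of 0.65. The region 29.8 kb downstream, chr11:112672312-112674365, had 216.4 and 218.2 against 138.6 and 137.6, and the one 19.9 kb downstream, chr11:112662476-112664437, had 174.7 and 172.5 against 95.4 and 92.8. The region 44.5 kb downstream had 143.9 and 131.0 against 73.6 and 77.8 CPM. Each lay higher in GFP without overlap, at 1.58 to 1.85 times the nonGFP level.

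The largest changes were in weaker regions upstream. The region 57.9 kb upstream, chr11:112585303-112585950, had 32.4 and 30.9 CPM in GFP and 10.5 and 10.2 in nonGFP, a change of 1.52 (limma adjusted p = 4.54e-26). A second region 59.0 kb upstream, chr11:112584331-112584653, changed by 1.32, and those 19.9 kb and 23.9 kb upstream by 1.09 and 0.98. Downstream the largest called changes were 1.11 at 130.3 kb, in chr11:112773642-112774034, and 1.03 at 74.0 kb, in chr11:112717305-112717721. These 2 regions had merged means of 7.30 and 11.2 CPM in GFP against 2.85 and 5.18 in nonGFP.

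Chromatin that carries other names within 2 Mb of the Sox9 start lay near the level of all regions. Of 204 such regions 5 were called higher in GFP and 2 lower, with a median of 0.01. In the upstream interval from Kcnj2 to BC006965, 2 of 73 regions were called higher, and in the downstream interval from 4732490B19Rik to Slc39a11, 2 of 30.

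**Figure D2:**
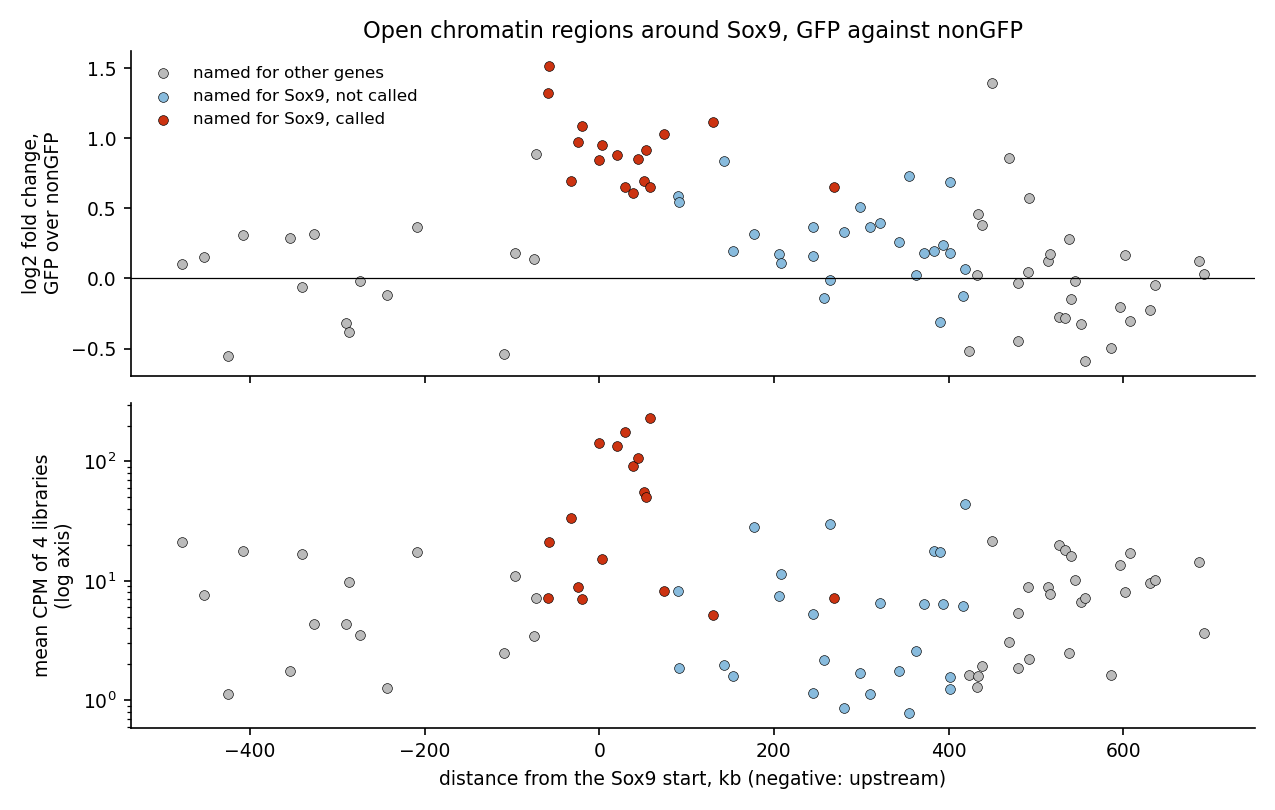
Change of each region between GFP and nonGFP on the log2(CPM + 1) scale (upper) and its mean CPM on a log axis (lower), against distance from the Sox9 start in kb; colours give regions named for other genes, and those named for Sox9 that were not called or called. The 17 called regions sit between 59.0 kb upstream and 268.7 kb downstream, 15 of them within 100 kb.

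In the table of lines and GTS sources 3 regions were named for Sox9, all between BC006965 and the start. The region over the start, chr11:112642601-112643930, was most accessible in GTS1 and least in GTML3. Its CPM in the duplicates were 35.5 and 48.5 in GTML3 under DMSO, 36.1 and 52.0 under DOX, 88.6 and 93.3 in preGTS1 under DMSO and 65.5 and 64.6 under DOX. GTS1 had 110.6 and 109.8 CPM and GTS2 75.9 and 67.6. Every library of preGTS1, GTS1 and GTS2 lay above every GTML3 library.

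At the start region DOX made no called difference in either line, although Sox9 RNA had risen in both. The change was 0.06 in GTML3 and -0.48 in preGTS1 (limma adjusted p = 0.140), where both DOX libraries lay below both DMSO libraries. Of the 3 regions, 0 were called by limma under DOX in GTML3 (all regions: 1.89% higher, 2.02% lower) and 0 in preGTS1 (2.04% and 1.7%). At an unadjusted p under 0.05 there were 0 in GTML3 and 2 in preGTS1, and edgeR on the recovered reads called 0 and 2. The line difference at the start was called, with 1.11 for preGTS1 over GTML3 under DMSO (limma adjusted p = 0.000423) and 0.57 under DOX (0.0287). GTS1 exceeded GTML3 under DMSO by 1.39 (1.60e-05) and GTS2 exceeded it by 0.77 (0.00193), and GTS1 exceeded GTS2 by 0.61 (0.0101).

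The region 54.1 kb upstream, chr11:112589201-112589725, was most accessible in preGTS1 under DOX. It had 19.0 and 16.6 CPM there, 4.44 and 6.43 in preGTS1 under DMSO, 6.0 and 4.32 in GTS1, and 2.53 and 2.41 in GTS2, while the 4 GTML3 libraries held 5 reads in all. The preGTS1 libraries under DOX lay above all others, with a merged ratio of 3.25 over DMSO from 222 against 80 reads. This difference did not pass limma (adjusted p = 0.169). The excess of preGTS1 over GTML3 was called under DMSO (limma adjusted p = 0.0273) and under DOX (0.00215). The region does not overlap the upstream GFP region at 57.9 kb.

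The region 32.0 kb upstream, chr11:112611450-112611650, was most accessible in GTS2. GTS2 had 11.8 and 5.43 CPM from 23 reads and GTS1 1.75 and 1.92 from 11 reads, preGTS1 had 0.51 to 2.13 CPM over its 4 libraries, and GTML3 held 0 reads under DMSO and 1 under DOX. Both GTS sources were called above GTML3 under DMSO (limma adjusted p = 0.0468 for GTS1 and 0.000172 for GTS2), and GTS2 above GTS1 (0.0221).

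In counts, preGTS1 was called above GTML3 at 2 of the 3 regions under DMSO (all regions: 12.3% higher, 5.47% lower) and at 2 under DOX (15.3% and 6.21%). GTS1 was called above GTML3 at 3 of 3 (16.7% and 15.1%) and GTS2 at 2 (17.2% and 22.1%). Between GTS1 and GTS2 1 region was called higher and 1 lower (22.6% and 16.4% of all regions), and between GTS1 and preGTS1 under DMSO limma called 0 (13.3% and 20.4%), with 0 at an unadjusted p under 0.05 and 1 by edgeR. The weak upstream regions rest on few reads, and leaving out any 1 of several libraries changed these counts by 1 or 2.

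**Figure D3:**
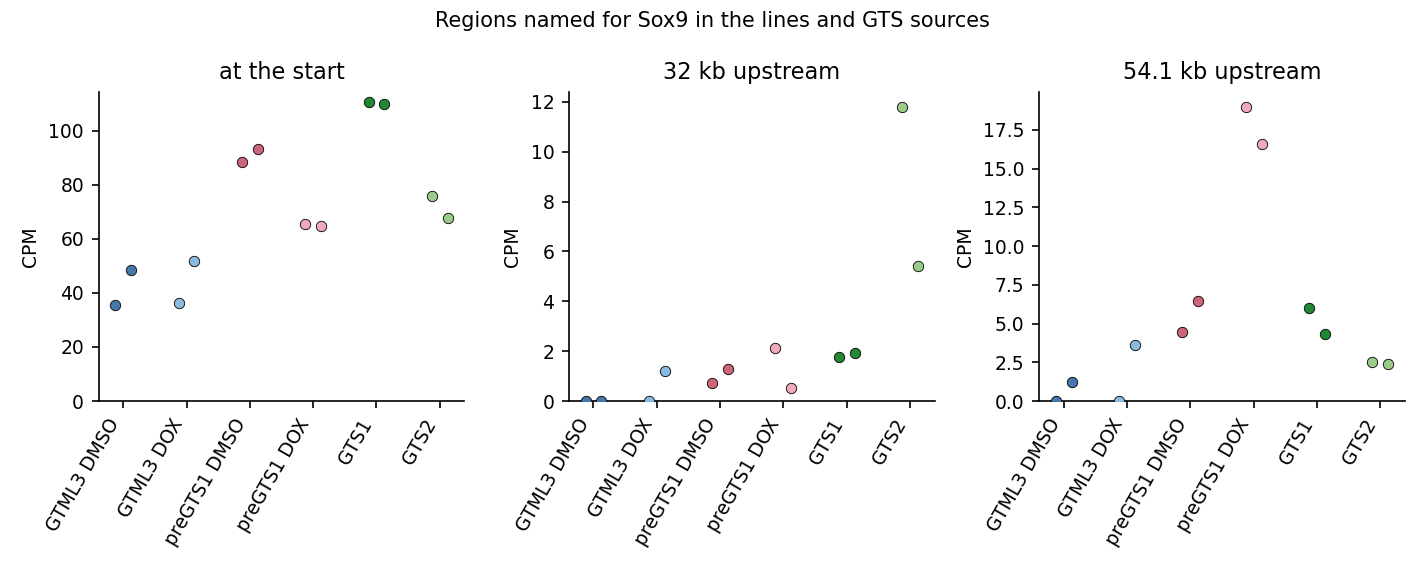
CPM of the 3 regions named for Sox9 in each of the 12 duplicate libraries of the lines and GTS sources, from the start (left) to 54.1 kb upstream (right). GTS1 is highest at the start (110.6 and 109.8), GTS2 at 32.0 kb (11.8 and 5.43) and preGTS1 under DOX at 54.1 kb (19.0 and 16.6).

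Among single cells Sox9 RNA was common in the GTS library and rare in the GTML library. With 1 library per kind there is no test, and intervals cover counting error only. GTML_SOX9-GFP held 4645 cells with a median of 18744 UMIs (captured molecules), and Sox9 had 12.2 per 1000000 UMIs (95% exact Poisson interval 11.5 to 12.9). The fGTS2 library held 4498 cells with a median of 20893.5 UMIs, and Sox9 had 68.6 per 1000000 (67.0 to 70.2). At least 1 Sox9 UMI was seen in 607 GTML cells, 13.1% (95% exact binomial interval 12.1 to 14.1), and in 2969 GTS cells, 66.0% (64.6 to 67.4). After each cell was thinned to 10000 UMIs, leaving out 496 and 288 shallower cells, the shares were 8.07% (7.26 to 8.95) and 44.4% (42.9 to 45.9). The libraries shared 6 barcodes.

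The RNA was spread unevenly over the cells. In the GTML library 4038 cells had 0 Sox9 UMIs, 379 had 1, 120 had 2 and 108 had 3 or more, and those 108 cells, 2.33% of all, held 46.9% of the Sox9 UMIs. In fGTS2 the numbers were 1529, 1194, 745 and 1030, and the last group, 22.9% of cells, held 62.1% of the UMIs. The highest cell had 17 Sox9 UMIs in each library.

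No cell type known to lack Sox9 was found to measure free RNA against. Requiring UMIs of at least 3 markers, 0 cells held microglial or endothelial markers in the GTML library, and 0 microglial and 1 endothelial cell were found in fGTS2. The fGTS2 table holds only 3 microglial and 3 endothelial markers, so a cell there had to hold all of them, and few or no cells could pass. At most 1 of 6 T cell markers is in either table, so T cells could not be sought. Astrocyte markers were held by 3 GTML cells and 0 GTS cells, with Gfap in neither table. Oligodendrocyte-lineage markers were held by 903 GTML cells, with Sox9 at 15.1 UMIs per 1000000 (13.6 to 16.8), and by 574 GTS cells, with 63.2 (59.6 to 67.1). Neuronal markers were held by 2724 GTML cells, with 11.6 (10.8 to 12.5), and by 441 GTS cells, with 53.6 (49.7 to 57.8). Both groups held Sox9 in both libraries, at a higher level in the GTS library. No doublet caller was run, and without the 1% of cells with most UMIs the levels were 12.2 and 68.7 per 1000000.

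Other SOX genes differed between the libraries as well. Sox2 had 1.29 UMIs per 1000000 in GTML and 6.34 in GTS, Sox5 1.19 and 14.4, and Sox6 0.198 and 2.94. Sox8 had 0.992 and 0.852, with overlapping intervals, and Sox4 was lower in GTS, at 332 and 214. Mycn had 65.0 (63.4 to 66.6) and 48.4 (47.0 to 49.7). Sox10 and Sox3 were not among the genes of either table.

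Cells were ranked by the share of their UMIs from the S-phase and G2/M lists and split into 5 equal bins, which are ranges of a score and not cell types. In fGTS2 the Sox9 level was lower from bin to bin up to the fourth and higher again in the last, with 96.4, 82.4, 66.2, 46.6 and 61.8 UMIs per 1000000 from the lowest to the highest cycling share. Thinned to 10000 UMIs, 55.7% of cells in the lowest bin and 42.3% in the highest had a Sox9 UMI, with 31.9% in the fourth. The median depth rose over the bins from 17835 to 29239 UMIs. In the GTML library the values were 16.1, 10.3, 9.29, 11.7 and 14 per 1000000, highest at both ends, and the thinned shares were 8.23% and 9.16% in the lowest and highest bins. The ratio of the lowest to the highest bin was 1.56 in fGTS2 and 1.15 in GTML.

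**Figure D4:**
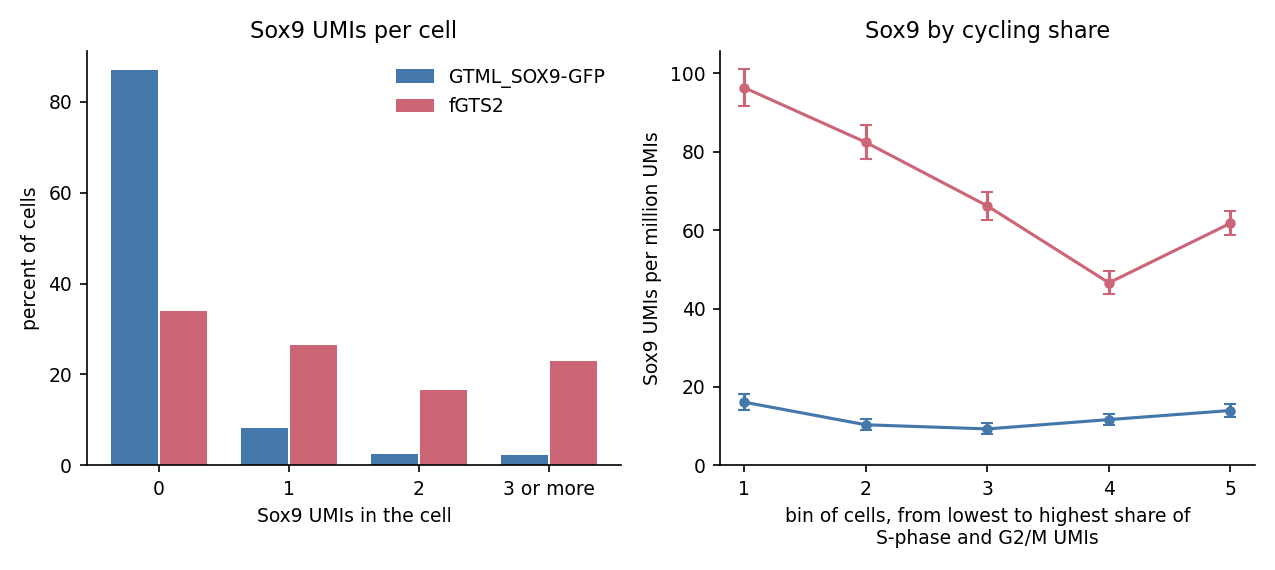
Percent of cells by number of Sox9 UMIs (left) and Sox9 UMIs per 1000000 UMIs in 5 bins of cells by their share of S-phase and G2/M UMIs (right), for the GTML_SOX9-GFP and fGTS2 libraries; bars on the right are 95% exact Poisson intervals. In fGTS2 66.0% of cells had a Sox9 UMI against 13.1% in GTML, and the level in fGTS2 ran from 96.4 in the lowest to 46.6 in the fourth bin.

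The genes whose RNA varied most like Sox9 over single cells in both libraries were only weakly correlated with it. Among 9550 genes seen in at least 5% of cells, ranked by the lower of the 2 Pearson correlations, the first 10 included Ptgs1, Lima1, Alox5, Gnai2, Pnpla6, Bmx, Clmn, Vav1 and Ptpn18. Ptgs1 and Alox5, enzymes of prostaglandin and leukotriene synthesis, had r = 0.24 and 0.20 over the 4645 GTML cells and 0.24 over the 4498 GTS cells for both. Such correlations of sparse counts are descriptions, and depth differs between cells.

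In the GTML library Sox9 had 22.2 UMIs per 1000000 (20.5 to 24.0) in the 1240 cells with a Ptgs1 UMI and 7.74 (7.09 to 8.44) in the other 3405, with median depths of 21033.5 and 17951 UMIs. In fGTS2 it had 72.7 (70.9 to 74.6) in 3407 cells with Ptgs1 and 50.7 (47.5 to 53.9) in the other 1091, with median depths of 22249 and 17864 UMIs. Ptgs1 itself was seen in 26.7% of GTML and 75.7% of GTS cells. The microglial markers in the tables (7 and 3 of 12) had 64 UMIs in all in the GTML library and 253 in fGTS2, or 0.668 and 2.45 per 1000000. In bulk, Gnai2, a G protein subunit, had r = 0.66 with Sox9 over the tumors and 0.80 over the treated lines, while Clmn had 0.39 and -0.67.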

How the data were processed

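Groups came from the sample titles. Per the submitters' processing notes, which give no roles, the tools were edgeR, MACS2, Seurat 3.0, Cell Ranger 3.3.0, limma, Subread 1.5.2, Bowtie2 2.2 and STAR 2.4.0, and the builds mm9 and mm10. In bulk RNA the authors deposited log2 CPM per gene, where the planned design had assumed CPM. For ATAC the authors deposited CPM per region. The treated-line and ATAC values gave whole reads for 100% of values (tolerance 0.1 read). Single-cell values were deposited as UMI counts. Tests used limma 3.58.1 (trend and robust) in R 4.3.3 over all genes or regions, Benjamini-Hochberg adjustment and a threshold of 0.05, on genes with at least 1 CPM in 6 tumors or 3 line samples, and on log2(CPM + 1) for ATAC. edgeR 4.0.16 on recovered reads was an alternative. Counts at an unadjusted p under 0.05 are given without the share of all genes or regions at that level, which was not computed, so they cannot be set against a background. No column was left unused.

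The members, gene lists and tests were chosen with earlier results of these data known. Named were Sox9, regions within 10 kb of its start, the 5 regions of highest mean CPM per table, up to 6 called regions of largest change, all SOX genes listed, the chromosomal neighbours, up to 4 called members of each other list by size of change, and the 10 genes most like Sox9. In tests on simulated data with 200 changed features, 2-fold and 4-fold changes were recovered for 26% and 56% in the tumors, 75% and 90% in GTML3, 15% and 66% in GTML3 ATAC (with 80 false calls among 88981 regions) and 66% and 88% in the GFP table. Some of the genes most like Sox9 are not reported here.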

Additional observations from a re-analysis of the deposited data

Results flagged for a closer look

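Of 34 groups of tumors checked gene by gene for a sample far from the others, 2 were found, and chance alone marks about 1 in 20 such groups. Sox10 in GTS tumor 5 had 2.74 log2 CPM, against 0.75 in the next highest GTS tumor. Slc39a11 in GTML tumor 8 had 5.28, against 5.72 in the next lowest. Sox9 itself had no such sample in either tumor group.

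The DOX response differed between preGTS1 and GTML3 (preGTS1 minus GTML3, log2 scale, limma interaction term, Benjamini-Hochberg adjusted) for several genes described beside Sox9. Of 6 measured SOX genes 3 were called higher and 0 lower, and of 7 measured neighbours 1 higher and 1 lower. The same test called 17.1% of all genes higher and 25.1% lower, so such calls were common. The difference was 1.92 for Sox4 (adjusted p = 7.31e-09), 1.49 for Sox5 (2.71e-05) and 1.83 for Sox6 (1.26e-07), higher in preGTS1 for each. It was 0.69 for Map2k6 (0.00254) and -0.44 for Slc39a11 (0.0113), both on the list of chromosomal neighbours. For Mycn it was -1.27 (0.000324), with a response of -3.59 in GTML3 and -4.86 in preGTS1.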

How the results depend on the processing

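The Sox9 rise under DOX in each line and the excess of preGTS1 over GTML3 kept direction and side of the threshold in every alternative run (adjusted p at most 0.000399 by limma or edgeR). On log2(CPM + 1) the rise was 1.34 in GTML3 and 1.82 in preGTS1, and the line difference 1.27 under DMSO and 1.75 under DOX, smaller because that scale compresses low values. Ranges without 1 library were 2.03 to 2.62 and 1.86 to 2.40 for the 2 responses, and 1.87 to 2.51 and 1.91 to 2.21 for the line difference under DMSO and DOX. The difference of responses turned to 0.48 on log2(CPM + 1) and ran from -0.49 to 0.15 without 1 library, never called, so its sign is not resolved. The tumor difference ran from 1.29 to 1.99 without 1 tumor, called only without GTML tumor 4, and was not called under the other alternatives; over all genes the calls went from 616 higher and 308 lower to 8 and 1 with the header number as a term.

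For the 43 GFP regions 16 to 18 were called in all settings (16 to 17 without 1 library). For the 3 line regions, preGTS1 DOX against DMSO gave 1 call after centring on library medians and 2 by edgeR, and 0 to 2 without 1 library. Under DMSO preGTS1 against GTML3 gave 1 with a pseudocount of 0.25 CPM and 1 after centring (1 to 2 without 1 library), and under DOX 1 after centring (1 to 2). GTS1 against GTS2 gave 1 with 0.25 CPM and 1 after centring (0 to 2), and GTS1 against preGTS1 gave 1 after centring and 1 by edgeR (0 to 0). GTS1 against GTML3 ran from 1 to 3 without 1 library and GTS2 against GTML3 from 2 to 3. The libraries whose absence changed a count were, for preGTS1 against GTML3, GTML3 DMSO 1, GTML3 DOX 1 and each of the 4 preGTS1 libraries, for preGTS1 DOX against DMSO either GTML3 DOX library, for GTS1 against GTML3 GTML3 DMSO 1 and both GTS1 libraries, and for GTS1 against GTS2 all 4 libraries. The cause of these changes was not tested. With 1 duplicate left, the lone library is assumed to vary like the other groups.

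Replicate numbers did not pair the samples (correlations of same-numbered RNA samples -0.15 to 0.07). With the replicate block the Sox9 values were 2.24, 2.13, 2.14, 2.02 and -0.12, and the counts of called regions 17, 0, 0, 2, 2, 2, 2, 2 and 0, so GTS1 against GTML3 went from 3 to 2. Thinned to 5000 UMIs, 4.67% of GTML and 28.5% of fGTS2 cells had a Sox9 UMI, fewer by construction. With G2/M genes alone, the lowest fGTS2 cycling bin had 89.0 UMIs per 1000000 instead of 96.4 and the ratio of lowest to highest bin was 1.46 instead of 1.56. In GTML the thinned difference of lowest minus highest bin was -0.94 percentage points, and 0.32 at 5000 UMIs. Sox9 had 44 reads in GTML3 under DMSO and the upstream line regions few, which limits those folds.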

Other observations

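The table of lines and GTS sources names most regions near Sox9 for other transcripts (Gm11681, 1700012H19Rik, 2610035D17Rik), so 43 of the 46 regions it holds in the same stretch do not carry the Sox9 name. An overlap of at least 1 base, chosen after seeing the data, ties 18 of its regions to 17 of the 43 Sox9 regions of the GFP table, the region at the start and the one 32.0 kb upstream among them.

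In most of these 18 regions GTS2 was the most accessible source. Limma called 16 of 18 higher and 0 lower in GTS2 than in GTML3 under DMSO (17.2% and 22.1% of all regions), with a median change of 2.98 on the log2(CPM + 1) scale against -0.23 over all regions. For GTS1 against the same GTML3 libraries it called 5 higher and 0 lower (16.7% and 15.1%), with a median of 0.52. The direct comparison of GTS1 with GTS2 gave 2 higher and 14 lower in GTS1 (22.6% and 16.4% of all regions), with a median of -2.40 against 0.30.

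At 58.0 kb downstream, chr11:112701098-112702011, the merged CPM was 54.9 in GTS2, 1.64 in GTS1, 0.878 in GTML3 under DMSO and 1.79 in preGTS1 under DMSO. At 177.6 kb, chr11:112820822-112821360, GTS2 had 59.1 and GTS1 0.822 CPM, and at 30.4 kb, chr11:112673621-112674263, 51.7 and 0.493. At the start the order was the other way, with 71.1 CPM in GTS2 and 110.3 in GTS1. The region 53.2 kb downstream, chr11:112696293-112697219, also went against the rest, with 5.63 CPM in GTS2 and 14.1 in GTS1.

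Limma called 0 of the 18 under DOX in either line, with 6 in GTML3 and 2 in preGTS1 at an unadjusted p under 0.05. Of all regions 1.89% were called higher and 2.02% lower in GTML3, and 2.04% and 1.7% in preGTS1. The 0 of 18 is near that background. The median change was -0.35 against 0 over all regions in GTML3, and 0.01 against 0.03 in preGTS1. In simulated data for GTML3 only 15% of 2-fold changes were recovered, so 0 calls there do not show that nothing changed. Under DMSO 4 of 18 were called higher in preGTS1 than in GTML3 and 0 lower (12.3% and 5.47% of all regions), and under DOX 6 and 0 (15.3% and 6.21%). At 264.2 kb, chr11:112907419-112908007, preGTS1 had 21.4 CPM under DMSO and 10.5 under DOX, against 5.27 and 1.67 in GTML3.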
